A study of Plutella xylostella with 6 samples.

Results

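Lipases cut fatty acids from glycerides and related esters. All genes described as lipases were collected from RNA-seq of whole second-instar larvae of the diamondback moth, Plutella xylostella, a caterpillar that feeds on cabbages and their relatives. They were chosen by the word lipase in the gene description, leaving out phospholipases, lipase maturation factors and regulatory proteins, which gave 84 of 21946 rows of the table. These rows hold 86 gene symbols, because 2 rows join a pair of symbols each. By their descriptions 32 rows were pancreatic-type lipases, 36 were gastric or lipase 3-type lipases and 16 were other lipases. The descriptions are those of the deposited table and mostly end in "-like", so they name the gene a member resembles, and no sequence of a member was used here.

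The study compared larvae treated for 12 hr with DMNT, a volatile homoterpene of plants (4,8-dimethyl-1,3,7-nonatriene in its 3E form), with control larvae. There were 3 Control and 3 DMNT libraries, each from total RNA of the whole body. In the feeding tests of the study control larvae received paraffin oil, the solvent of DMNT; whether these did is not stated. The methods set one DMNT dose for every bioassay except the dose test, without naming it for these libraries. The number of larvae pooled in a library is not stated, nor is it said whether the replicates were reared apart, so the p-values below measure only the spread between these libraries. The study asked among other things whether treated larvae still digest their food, and assayed lipase activity of isolated midguts in another experiment. It reported significantly lower activity in treated larvae there, after a longer exposure than the 12 hr of these libraries. The comparison here is of the messenger RNA of the lipase genes.

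A caterpillar takes up plant fat by cutting it in the gut lumen, chiefly with secreted neutral lipases of the family that holds vertebrate pancreatic, hepatic and lipoprotein lipase. Some of the insect members of that family lack residues needed for cutting, and some sit in other tissues. Acid lipases, the family of vertebrate gastric and lysosomal acid lipase and of fly lipase 3, work in lysosomes or in the gut. Fat stored in the fat body is released by enzymes inside the cell, in flies chiefly brummer, the homologue of adipose triglyceride lipase, and hormone-sensitive lipase. Other lipases of the cell interior, such as the diacylglycerol lipases of vertebrates, make signalling lipids.

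The libraries held from 39853422 counts (DMNT 3) to 56381123 counts (Control 1), of which 196748 to 251797 fell on lipases. A gene with no count in a library could still hold up to 3 counts, or 0.0532 to 0.0753 CPM (counts scaled to the library total), and this limit covers counting error only. Markers of several tissues were present, as the whole-body label says: the summed FPKM (fragments scaled by exon length and by the reads mapped) was 5224 to 6024 for 31 midgut markers, 9540 to 12410 for 28 muscle markers, 1421 to 2400 for 6 silk gland markers and 273 to 335 for 84 testis markers, of which 1 was at 0 in every library. The 28 fat body markers, 1 of them at 0 throughout, ranged from 1887 to 3962 in Control and from 1089 to 4927 in DMNT, the lowest in DMNT 3 and the highest in DMNT 2. In whole bodies, fewer cells of a tissue and less RNA per cell cannot be told apart.

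Other lipases had the highest summed level in every library, followed by pancreatic-type and then by gastric or lipase 3-type lipases. The summed FPKM of the 16 other lipases was 2270, 2272 and 2531 in Control and 2054, 2011 and 2451 in DMNT. For the 32 pancreatic-type lipases it was 1011, 1060 and 999 in Control and 1013, 1021 and 1231 in DMNT. The 36 gastric or lipase 3-type lipases summed to 292, 338 and 276 in Control and 296, 291 and 323 in DMNT. The order of the classes was the same in all 6 libraries, and no value of one class reached that of the next. It depended on where genes were placed. In the other class 2 lipoprotein lipase-like genes summed to 1725 to 2249 FPKM and 9 lipase member H-type genes to 247 to 302. Both sets are of the neutral family. The bile salt-activated lipases summed to 2.34 to 7.53 FPKM and those of the cell interior to 15.55 to 27.76. With the neutral sets counted as pancreatic-type, the other class would be the lowest in every library.

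The lead of the other class came from a single gene. LOC105389107, described as lipoprotein lipase-like, had 1878, 1798 and 2119 FPKM in Control and 1628, 1598 and 2010 FPKM in DMNT. It ranked between 93 and 111 among 21946 rows by FPKM, and it made up 48.1% to 55.7% of the summed FPKM of all lipases. In vertebrates lipoprotein lipase frees fatty acids from circulating lipoproteins. The insect genes with that description belong to the same neutral family, and the name does not fix their substrate. Without LOC105389107 the other class summed to 393 to 473 FPKM, below every library's pancreatic-type sum and above every library's gastric or lipase 3-type sum.

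**Figure D1:**
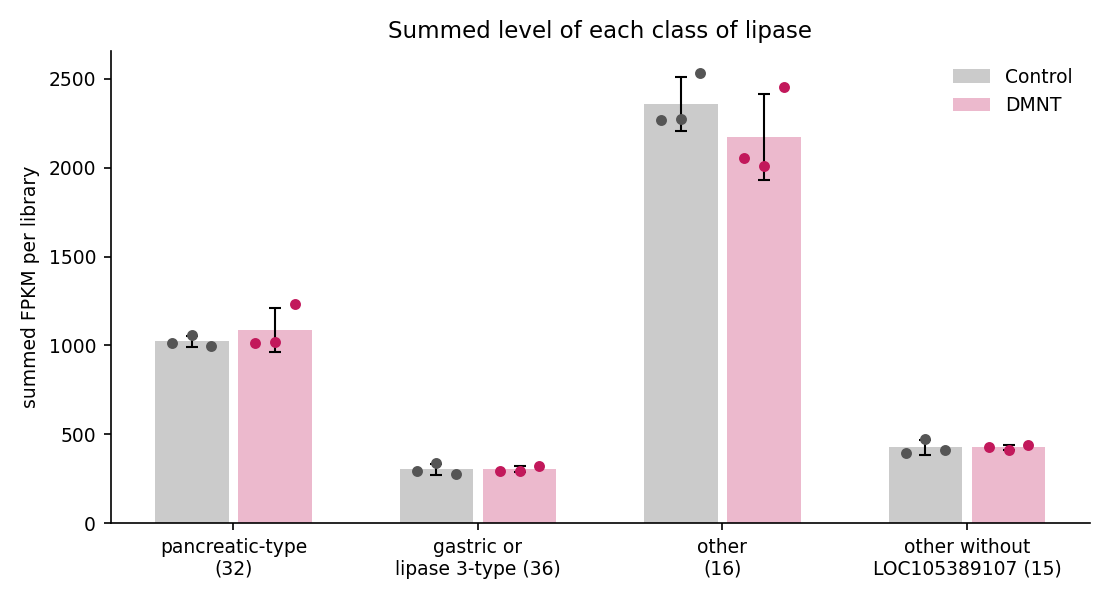
Summed FPKM per library (vertical axis) for each class of lipase, with the number of members in brackets; points are the 3 Control and 3 DMNT libraries, bars their mean and error lines 1 SD. The order other, pancreatic-type, gastric or lipase 3-type holds in all 6 libraries, and the other class drops to 393 to 473 FPKM once LOC105389107 is left out.

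Most lipases were expressed at a low or moderate level. By mean FPKM over the 6 libraries 7 members were at 100 or more, 21 between 10 and 100, 30 between 1 and 10, 4 between 0.5 and 1, 20 above 0 but under 0.5, and 2 at 0 in every library. The 7 highest were 4 pancreatic-type and 3 other lipases. No gastric or lipase 3-type member reached 100 FPKM, and its highest, LOC105394377, had a mean of 65.2 FPKM. The median of the mean FPKM was 5.81 for the pancreatic type, 3.4 for the gastric or lipase 3 type and 7.98 for the others. The 10 highest members held 80.1% to 83.1% of the lipase FPKM in a library, and all 84 together held 0.387% to 0.462% of the FPKM of all rows.

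**Figure D2:**
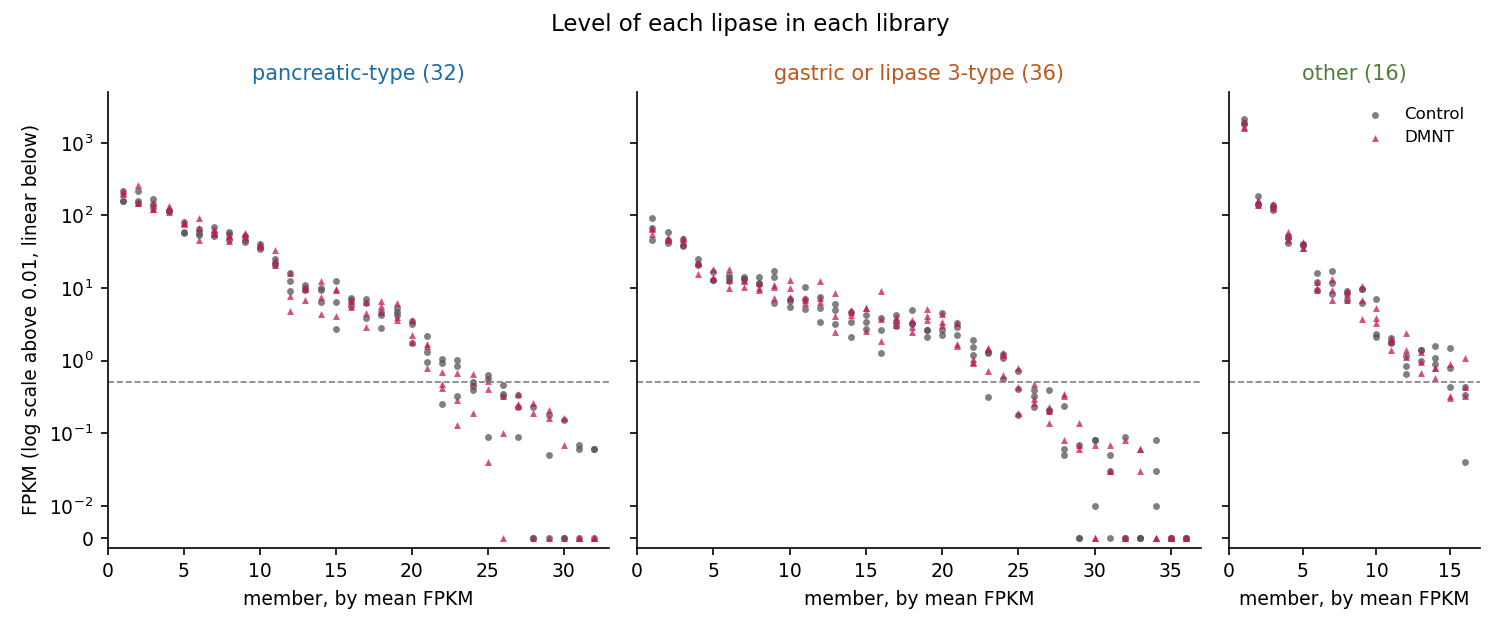
FPKM of each of the 84 lipases (vertical axis, logarithmic above 0.01 and linear below) in each of 3 Control (circles) and 3 DMNT libraries (triangles), ordered by mean FPKM within each class; the dashed line marks 0.5 FPKM, the minimum mean for a test. LOC105389107 stands alone at the left of the other class between 1598 and 2119 FPKM, and no gastric or lipase 3-type lipase exceeds 91.8 FPKM.

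Among pancreatic-type lipases, 19 were described as pancreatic triacylglycerol lipase, the enzyme that cuts dietary fat in the vertebrate gut, and 13 as pancreatic lipase-related proteins, of which vertebrates have active and inactive forms. The first set summed to 687 to 849 FPKM and the second to 256 to 382 FPKM. LOC105387533 had the highest mean of the class, with 158, 219 and 156 FPKM in Control and 196, 219 and 206 FPKM in DMNT. The joined row LOC105389106;LOC105389108, which includes a pancreatic lipase-related protein 2-like gene, had 213, 150 and 159 FPKM in Control and 150, 147 and 266 FPKM in DMNT. DMNT 3 was its highest library and the other 2 DMNT libraries lay at or below the lowest Control library.

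LOC105387526, a pancreatic triacylglycerol lipase-like gene, had 127, 144 and 167 FPKM in Control and 123, 122 and 149 FPKM in DMNT. LOC105387530, of the same description, had 116, 113 and 115 FPKM in Control and 127, 113 and 134 FPKM in DMNT. It was one of the steadiest members, with a coefficient of variation (CV, the SD over the mean) of 7.25% over the 6 libraries. LOC105387529 varied more, with 57.6, 54.2 and 65.3 FPKM in Control and 46.4, 67.6 and 93.1 FPKM in DMNT, so that both its lowest and its highest library were DMNT libraries. The only member described as inactive, LOC105394357, an inactive pancreatic lipase-related protein 1, had 7.4, 5.73 and 6.75 FPKM in Control and 5.39, 6.54 and 6.86 FPKM in DMNT.

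Several of the highest members had consecutive locus numbers. The assembled loci carry running numbers, and 20 members fell into 6 runs of consecutive numbers. Only 65 of the 84 rows have such a number, so a gene without one can lie inside a run. The longest run, loci 8811 to 8817, held 7 members, 6 of the pancreatic type and the lipoprotein lipase-like LOC105387532. Their mean FPKM in the order of the loci was 139 for LOC105387526, 24.3 for LOC105387527, 64.0 for LOC105387529, 120 for LOC105387530, 50.4 for LOC105387531, 134 for LOC105387532 and 192 for LOC105387533. All 7 were above 20 FPKM in every library, yet neighbours in the run differed by up to several fold. Together they summed to 647 to 802 FPKM, 38.1% to 41.8% of the lipase FPKM without LOC105389107.

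LOC105389107 itself lay at locus 10060, next to the joined row LOC105389106;LOC105389108 at locus 10059. Their means were 1838 and 181 FPKM. The remaining 4 runs were of gastric or lipase 3-type lipases. In one of them LOC105388514, at a mean of 48.7 FPKM, lay between LOC105388513 at 3.41 and LOC105388515 at 11.4 FPKM. LOC105393476 and LOC105393475, a pair of lipase 3-like genes, had means of 43.8 and 12.8 FPKM. The run of LOC105394463, LOC105394464, LOC105394458 and LOC105394465 was low throughout, with means of 1.1, 1.0, 4.91 and 2.51 FPKM.

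**Figure D3:**
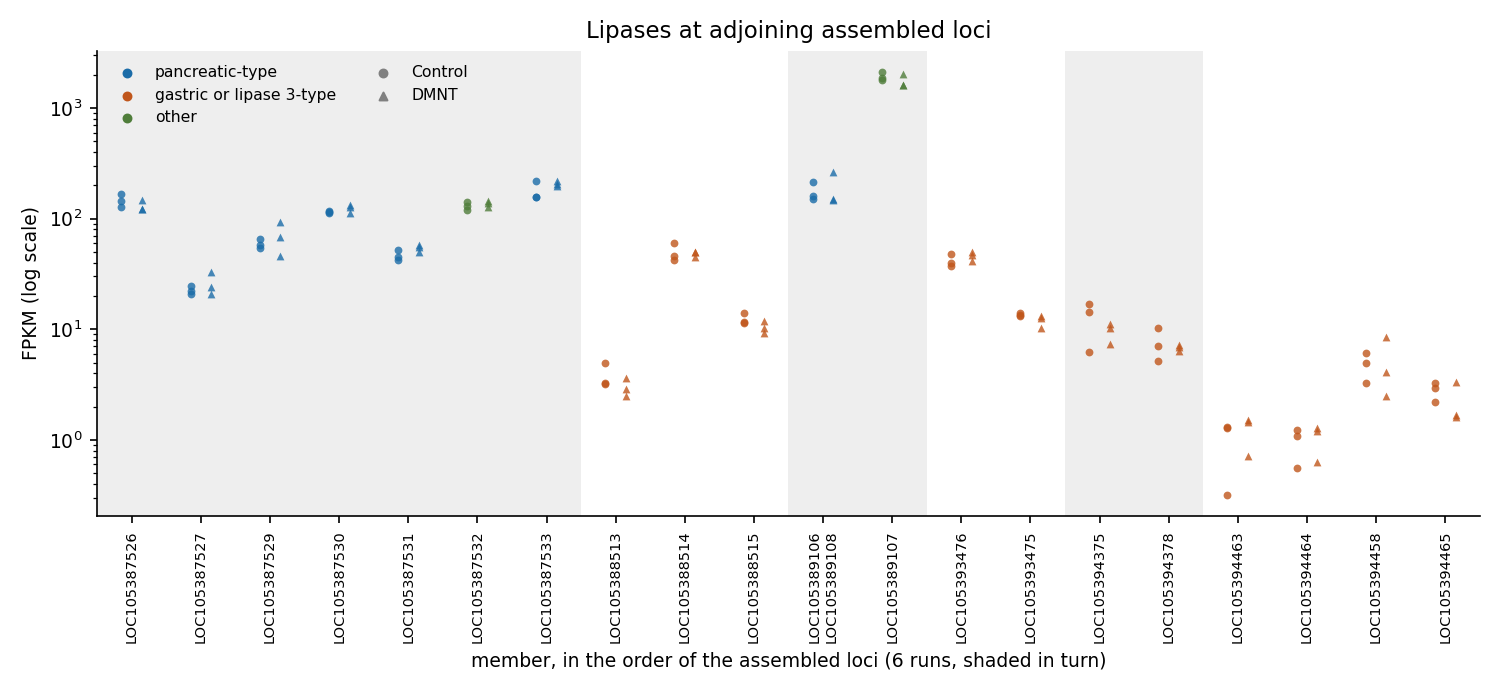
FPKM (vertical axis, logarithmic) of the 20 lipases at consecutively numbered assembled loci, in locus order, with the 6 runs shaded in turn. Circles are the 3 Control and triangles the 3 DMNT libraries, coloured by class. The longest run holds 7 members with means of 24.3 to 192 FPKM, and in the third run LOC105389107 at 1838 FPKM stands beside a neighbour at 181 FPKM.

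Genes that lie side by side with one description can be near-identical copies. Reads that fit several copies could have been split among them or given to one, and no source used here states how the authors counted such reads or whether they used strand. The level of a single member of a run is therefore less certain than the sum of the run. In a newer RefSeq annotation of the species (ilPluXylo3.1), used for names and neighbours alone, 58 of the 84 rows had a matching symbol. There LOC105387526, LOC105387527, LOC105387529, LOC105387552 and LOC105387530 were neighbours in that order. LOC105387552, a pancreatic lipase-related protein 2-like gene with a mean of only 0.45 FPKM here, has no locus number. LOC105387531, LOC105387532 and LOC105387533 had no match. LOC105389107 and LOC105389108 were neighbours there too. Between LOC105388513 and LOC105388515 that annotation has LOC105394377, the highest gastric or lipase 3-type lipase, in the place that LOC105388514 takes among the assembled loci.

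The gastric or lipase 3-type lipases were many and mostly low. They comprised 19 genes described as lipase 3, 11 as lipase 1, 2 as lipase member M, 2 as lipase member J and 2 as gastric triacylglycerol lipase. LOC105394377, lipase 1-like, was the highest, with 67.7, 91.8 and 45.1 FPKM in Control and 55.8, 66.7 and 63.9 FPKM in DMNT. The Control libraries of this gene spanned the DMNT libraries on both sides. Next came LOC105388514, also lipase 1-like, with 46.2, 59.7 and 42.2 FPKM in Control and 49.6, 49.5 and 45.2 FPKM in DMNT.

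Both lipase member M-like genes were moderate, with means of 14.7 FPKM for LOC105392920 and 13.8 FPKM for LOC105383596, while both lipase member J-like genes stayed at a mean of 0.04 FPKM or less. Of the gastric triacylglycerol lipase-like genes, LOC105397576 had 2.76, 4.19 and 3.38 FPKM in Control and 2.59, 5.29 and 5.26 FPKM in DMNT, and LOC105398406 no more than 0.06 FPKM in any library. These members were named for their descriptions, after their values were seen.

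The class shared an annotation that the choice of members had not used. In the authors' KEGG and Gene Ontology columns, 34 of its 36 rows carried the enzyme number of sterol esterase and a triglyceride lipase term, and all 36 carried the lysosome pathway. No pancreatic-type row carried the lysosome pathway, and 29 of the 32 carried the glycerolipid pathway, 9 a triglyceride lipase term and 6 the enzyme number of triacylglycerol lipase. Those 6 were not the high members: LOC105386963 had a mean of 38.1 FPKM and the other 5, LOC105395737, LOC105396071, LOC105391170, LOC105389896 and LOC105384711, had means under 10 FPKM. A further 3 rows, LOC105392817, LOC105390676 and LOC105394360;LOC105394355, carried the number of an exoribonuclease.

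Besides the 2 lipoprotein lipase-like genes, the other class held 9 lipase member H-type genes, 2 bile salt-activated lipases and 3 lipases of the cell interior. Vertebrate lipase member H cuts phosphatidic acid, and the insect genes of that description are again part of the neutral family. LOC105398546, lipase member H-A-like, was by far the highest of the 9, with 140, 185 and 146 FPKM in Control and 141, 161 and 159 FPKM in DMNT. LOC105393640 and LOC105390520 followed, with 42.1 to 58.8 and 35.4 to 43.5 FPKM. The remaining 6 had means from 0.71 to 11.1 FPKM.

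LOC105387532, the second lipoprotein lipase-like gene, had 120, 141 and 130 FPKM in Control and 144, 128 and 139 FPKM in DMNT. Its CV of 7.0% over the 6 libraries was the second lowest among members with a mean of at least 1 FPKM. LOC105389107 is described in the same words, and its mean was about an order of magnitude higher.

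The enzymes of the cell interior were low to moderate in these whole bodies. The hormone-sensitive lipase gene LOC105392962, whose product in vertebrates releases stored fat, had 1.74, 1.81 and 2.06 FPKM in Control and 1.41, 1.89 and 2.06 FPKM in DMNT. LOC105387151, the monoacylglycerol lipase ABHD12, had 12.0, 16.3 and 9.51 FPKM in Control and 12.2, 9.90 and 9.28 FPKM in DMNT. LOC105396064, the sn1-specific diacylglycerol lipase beta, had 9.81, 9.68 and 6.16 FPKM in Control and 10.6, 3.76 and 6.91 FPKM in DMNT, a DMNT range that enclosed the Control range. Of the bile salt-activated lipases, LOC105391967 had means of 3.83 FPKM in Control and 4.14 FPKM in DMNT and carried the enzyme number of acetylcholinesterase, and LOC105382776 did not reach a mean of 0.5 FPKM.

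The spread between libraries grew as the level fell. The 28 members at 10 FPKM or more had a median CV of 13.5% over the 6 libraries, with a range of 5.96% to 41.4%, and the 30 members between 1 and 10 FPKM had a median of 31.5%, with a range of 11.6% to 75.8%. LOC105386963, a pancreatic triacylglycerol lipase-like gene, was the steadiest, at 39.9, 36.8 and 34.4 FPKM in Control and 37.8, 40.5 and 39.3 FPKM in DMNT. Among members with a mean of at least 1 FPKM, LOC105392100, a lipase 3-like gene, was the least steady. It had 1.28, 2.64 and 3.87 FPKM in Control and 3.71, 1.86 and 9.20 FPKM in DMNT. These 2 were picked after their values were seen.

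In the fit made here, no lipase passed the study's thresholds after 12 hr of DMNT, in any of the 3 classes. The highest members had estimates near 0. The log2 fold change (DMNT over Control) was -0.10 with a standard error (SE) of 0.163 for LOC105389107, 0.28 (SE 0.145) for LOC105387533, 0.16 (SE 0.270) for LOC105389106;LOC105389108, 0.03 (SE 0.137) for LOC105398546 and -0.11 (SE 0.169) for LOC105387526. LOC105380526 and LOC105389423, a pair of lipase 3-like genes of low level, had the smallest p, with log2 fold changes of 0.87 and 0.71. Over all tested lipases the log2 fold change ran from -0.90 for LOC105384711 to 0.97 for LOC105392100.

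The test was edgeR's quasi-likelihood test on the counts of all 17709 rows with a mean of at least 0.5 FPKM, and a call needed at least a 2-fold difference (1 on the log2 scale) together with a p under 0.05 before adjustment. Of the 84 lipases 62 could be tested, 23 pancreatic-type, 24 gastric or lipase 3-type and 15 other. None of them was called higher, against 0.367% of all rows tested, and none lower, against 0.503%. At shares this small, an absence of calls among 62 rows says little. The fit is not the study's own, so its calls need not be the same. At an unadjusted p under 0.05 alone, 3 lipases were higher (1.75% of all rows) and 1 was lower (1.68% of all rows). After Benjamini-Hochberg adjustment over all rows no lipase passed 0.05 and their smallest adjusted p was 1.0, while 2 rows, or 0.0113%, passed over the whole table. DESeq2 gave the same 0 lipases after adjustment and 4 at an unadjusted p under 0.05.

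A call that is missed does not show that a gene stayed the same, so the intervals are given too. The 95% interval of the log2 fold change lay between -1 and 1 for 38 of the 62 lipases, against 67.8% of all rows. Among members at 10 FPKM or more this held for 26 of 28, against 88.2% of all rows at that level. Under 10 FPKM it held for 12 of 34, against 59.2%. The interval was -0.48 to 0.27 for LOC105389107 and -0.06 to 0.61 for LOC105387533, so that for these high members a change of 1 on the log2 scale lay outside it in either direction. For LOC105392100 it ran from -0.45 to 2.38 and for LOC105384711 from -2.42 to 0.61.

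**Figure D4:**
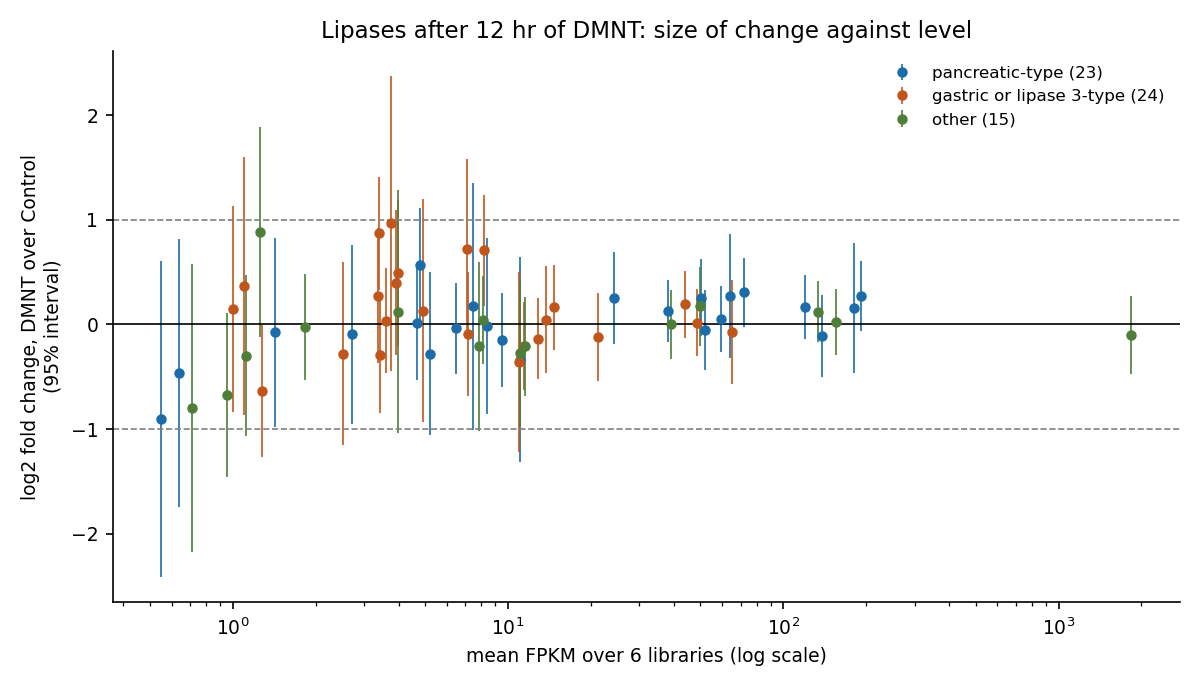
Log2 fold change (DMNT over Control, edgeR) with its 95% interval (vertical axis) against mean FPKM over 6 libraries (horizontal axis, logarithmic) for the 62 tested lipases, coloured by class; dashed lines mark -1 and 1. No point reaches a dashed line, and 26 of the 28 members at 10 FPKM or more have their whole interval between the lines.

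The medians of the 3 classes lay near 0. The median log2 fold change was 0.02 over the 62 lipases, with 33 above 0 and 29 below, and -0.003 over all rows tested. By class it was 0.02 for the pancreatic type, 0.09 for the gastric or lipase 3 type and -0.03 for the others. On the FPKM scale the summed level in DMNT was 1.06 times that in Control for the pancreatic type (1023 ± 32.1 in Control and 1088 ± 124 in DMNT, mean ± SD, n = 3 each). For the gastric or lipase 3 type the sums were 302.0 ± 32.3 and 303.1 ± 17.3, and for the others 2358 ± 150 and 2172 ± 242, a ratio of 0.921. The ratios depended on the scale. Summed as CPM scaled by the trimmed mean of M-values, they were 1.1, 1.02 and 0.949 in the same order of classes. On FPKM 5.29% of all rows had their DMNT libraries below all Control libraries, against 3.12% above. In each class the ranges of the Control and DMNT sums overlapped, in the other class only through DMNT 3. In that class DMNT 1 and DMNT 2, at 2054 and 2011 FPKM, lay below every Control sum. By replicate number its Control and DMNT sums were 2270 and 2054, 2272 and 2011, and 2531 and 2451 FPKM. In the pancreatic type and the gastric or lipase 3 type the direction differed between replicate numbers. The labels do not say that same-numbered libraries were pairs. Leaving out single libraries, the ratio of the other class ranged from 0.862 without DMNT 3 to 0.956 without Control 3.

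DMNT 3 had the highest pancreatic-type sum, 1231 FPKM, while DMNT 1 and DMNT 2 lay within the Control range. That sum holds the joined row LOC105389106;LOC105389108, which includes an uncharacterized gene. The row had 266 FPKM in DMNT 3, against 150 in DMNT 1 and 147 in DMNT 2. In the gastric or lipase 3-type and other classes the sum of DMNT 3 lay within the Control range. Against each gene's mean over the 6 libraries, the median pancreatic-type lipase was 0.18 higher on the log2 scale in DMNT 3, the median gastric or lipase 3-type 0.12 higher and the median other lipase 0.09 higher, with a median of 0.004 over all rows. The same library had the lowest total count, the lowest summed fat body markers at 1089 FPKM, the lowest silk gland markers at 1421 FPKM and the highest midgut markers at 6024 FPKM, and their part in the result was not tested. Without it the median log2 fold change of the lipases was -0.09, and that of the pancreatic type -0.13.

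The 4 members with an unadjusted p under 0.05 were low, and 3 of them were lipase 3-like genes. LOC105380526 (lipase 3-like) had 3.24, 2.49 and 3.42 CPM in Control and 5.34, 4.58 and 6.85 CPM in DMNT, after scaling by the trimmed mean of M-values (TMM). All 3 DMNT libraries lay above the Control libraries, with a log2 fold change of 0.87 (SE 0.235, edgeR adjusted p = 1.0). LOC105389423, also lipase 3-like, had 8.94, 7.98 and 7.34 CPM in Control and 12.99, 9.62 and 17.1 CPM in DMNT. Here too the groups did not overlap, and the log2 fold change was 0.71 (SE 0.230). In the newer RefSeq annotation LOC105380526 lies next to LOC105389422, a lipase member J-like gene that was at 0.08 FPKM or less in these libraries.

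LOC105381446, a pancreatic triacylglycerol lipase-like gene, had 4.82, 5.04 and 3.39 CPM in Control and 6.50, 5.26 and 7.92 CPM in DMNT, a log2 fold change of 0.57 (SE 0.238). The gap between its groups was narrow. LOC105394797 (lipase 3-like) went the other way, with 2.98, 2.19 and 3.95 CPM in Control and 2.06, 1.86 and 1.93 CPM in DMNT. Its log2 fold change was -0.64 (SE 0.274), and its DMNT libraries lay close together below all Control libraries.

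LOC105389754, a pancreatic triacylglycerol lipase-like gene and one of the 10 highest lipases, had 65.6, 87.8 and 72.9 CPM in Control and 96.2, 92.1 and 92.0 CPM in DMNT. Its groups did not overlap, but the log2 fold change was only 0.31 (SE 0.143). LOC105383735, a lipase member H-A-like gene, had 1.36, 1.55 and 2.51 CPM in Control and 1.27, 1.21 and 0.912 CPM in DMNT, with a log2 fold change of -0.67 (SE 0.341). Its DMNT libraries were again below all Control libraries.

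In all, 4 of the 62 lipases had their DMNT libraries above all Control libraries (6.45%, against 4.25% of all rows) and 2 had them below (3.23%, against 4.12%). These shares depended on the scale. On the deposited FPKM, LOC105389754 and LOC105381446 overlapped, which left 2 lipases higher (3.12% of all rows), and LOC105393475 joined LOC105394797 and LOC105383735 among 3 lower (5.29% of all rows).

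**Figure D5:**
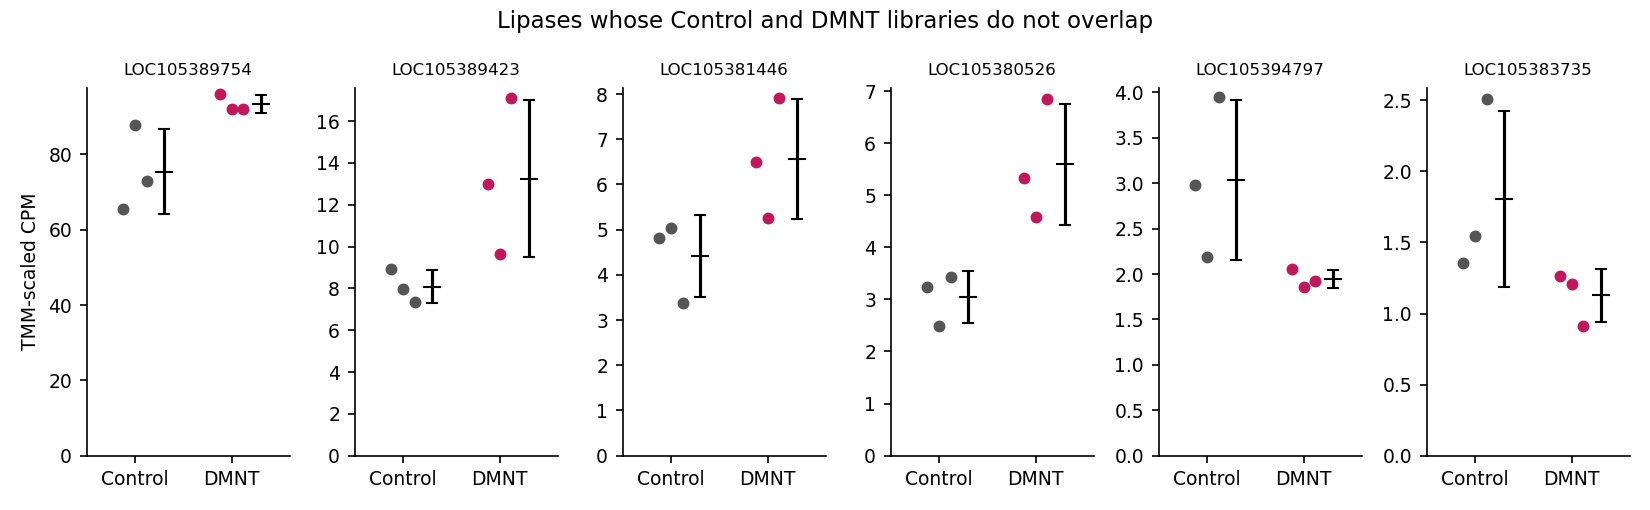
TMM-scaled CPM (vertical axes, each from 0) of the 6 lipases whose Control and DMNT libraries do not overlap on this scale, in order of mean FPKM; points are the 3 libraries of a group and the lines beside them the mean and 1 SD. LOC105389754, LOC105389423, LOC105381446 and LOC105380526 are higher in DMNT, LOC105394797 and LOC105383735 are lower, and none passes the study's thresholds.

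Among the other members of smallest p, several had wide spreads. LOC105381861 (lipase 1-like) had 4.27, 6.47 and 10.2 CPM in Control and 9.67, 8.21 and 16.7 CPM in DMNT, a log2 fold change of 0.72 (SE 0.371). LOC105381393 (lipase 3-like) had 5.99, 3.58 and 8.76 CPM in Control and 7.89, 8.49 and 9.38 CPM in DMNT, a log2 fold change of 0.49 (SE 0.304). In both, a Control library lay within the DMNT range. Among the others, LOC105394123 (lipase member H-A-like) had a log2 fold change of 0.89 (SE 0.436) and LOC105389706 (lipase member H-B-like) of -0.80 (SE 0.596), both from under 3 CPM in every library. LOC105393640 was at 0.17 (SE 0.165) and LOC105387151, the ABHD12 gene, at -0.21 (SE 0.205).

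Leaving out a single library brought 4 lipases past the thresholds, each under 1 setting alone. They were LOC105381861 at 1.10 without Control 3, LOC105394123 at 1.09 without DMNT 1, and LOC105392100 at 1.37 and LOC105384711 at -1.65 without DMNT 2. These fits tested 62, 64 and 62 lipases in that order. Over all rows tested, 239 of 17711 passed without Control 3, 163 of 17720 without DMNT 1 and 275 of 17689 without DMNT 2. With all libraries 154 of 17709 passed. Whether lipases passed more often than other rows was not tested.

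In the longest run 6 of the 7 members had estimates above 0. Besides LOC105387526 at -0.11, their log2 fold changes were all above 0, with 0.28 (SE 0.145) for LOC105387533, 0.27 (SE 0.255) for LOC105387529, 0.26 (SE 0.159) for LOC105387531, 0.25 (SE 0.190) for LOC105387527, 0.17 (SE 0.133) for LOC105387530 and 0.12 (SE 0.127) for LOC105387532. None passed a threshold. Their summed level was 696.9 ± 46.6 FPKM in Control and 749.0 ± 45.6 FPKM in DMNT (mean ± SD, n = 3 each). Because reads of near-identical neighbours may be shared, these 7 values are not independent of each other.

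The 22 lipases under a mean of 0.5 FPKM, 9 pancreatic-type, 12 gastric or lipase 3-type and 1 other, were left out of the main test. Without the filter 82 lipases could be tested, and none passed the thresholds. LOC105392817, pancreatic triacylglycerol lipase-like, had 64, 39 and 45 counts in Control and 0, 14 and 32 in DMNT. The bile salt-activated lipase-like LOC105382776 went the other way, with 2, 14 and 19 counts in Control and 17, 16 and 37 in DMNT. LOC105386611 (lipase 1-like) and LOC105381633 (lipase 3-like) had no count in any library. LOC105380527, lipase member J-like, had 3, 6 and 1 counts in Control and 0 in each DMNT library. LOC105384241, a pancreatic triacylglycerol lipase-like gene, had 4, 4 and 0 counts in Control and LOC105396661, a pancreatic lipase-related protein 2-like gene, 4, 0 and 4, and both had 0 in each DMNT library. LOC105398406, gastric triacylglycerol lipase-like, had 0 counts in each Control library and 2, 3 and 3 in DMNT. Among members with 6 counts or fewer in every library no difference was detectable at this depth.

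Short lists of other genes of fat digestion, uptake and storage held no calls either. Over all rows tested 0.367% were called higher and 0.503% lower, so an absence of calls in lists this short says little about these genes. None of 24 tested phospholipases, which cut membrane lipids, passed the thresholds in either direction, and their median log2 fold change was -0.05. The same was true of 30 genes of fatty acid and sterol uptake and carriage (median -0.04), 25 genes of triacylglycerol synthesis (median -0.05) and 16 genes of lipid droplets and the control of lipolysis (median 0.12). The summed FPKM of the uptake and carrier genes was 1838 to 2138 in Control and 1596 to 1961 in DMNT, and that of the synthesis genes 398 to 410 in Control and 338 to 384 in DMNT. The synthesis sums did not overlap between the groups, and the uptake sums did. On the FPKM scale 5.29% of all single rows had their DMNT libraries below all Control libraries, against 3.12% above. TMM-scaled sums of these lists are not given here.

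Of 132 tested digestive proteases and carbohydrases, which cut the protein and starch of the same meal, none was called higher (0.367% of all rows) and 3 were called lower (0.503% of all rows). Their median log2 fold change was 0.03, with 73 above 0 and 59 below. The DMNT libraries lay above all Control libraries for 20 of them (4.25% of all rows) and below for 6 (4.12% of all rows). The 3 were the trypsins LOC105383571, at -1.12 (SE 0.378), and LOC105384556, at -1.96 (SE 0.843), and the chymotrypsin-like LOC105397690, which had 0.717 CPM or less in every library. Among the 24 tested fat body markers 1 was called higher (0.367% of all rows), the acidic juvenile hormone-suppressible protein LOC105388111, at 1.56 (SE 0.650). None of the 31 midgut, 23 muscle, 50 testis and 6 silk gland markers tested was called (0.367% of all rows were called higher and 0.503% lower).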

How the data were processed

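The 6 whole-body libraries, 3 Control and 3 DMNT, were grouped by title. The authors aligned cleaned reads to the NCBI genome of the species (Hisat) and assembled and quantified genes (StringTie); the sources used here give neither versions nor the counting program. The deposited table holds whole-number counts, not normalized, and FPKM, scaled by the authors to exon length and to mapped reads. Each of the 12 value columns was used. Levels were compared between genes as FPKM.

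Rows with a mean of at least 0.5 FPKM were kept, and TMM-scaled counts were tested in R 4.3.3 with edgeR 4.0.16 (glmQLFit, glmQLFTest, no covariate). The study's thresholds were used for calls, and adjusted p-values cover all 17709 rows. The SE is the absolute log2 fold change over the square root of F, and the 95% interval uses 7.99 degrees of freedom. No 2 libraries agreed within sampling noise.

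Same-numbered Control and DMNT libraries deviated together, if weakly (correlations of 0.103, 0.102 and 0.195), so a fit with the replicate number as a block was run as an alternative; Control 2 correlated as well with DMNT 1 (0.110). The other alternatives were median-ratio scaling, DESeq2 1.42.0, other filters, limma 3.58.1 on log2(FPKM + 0.1) or log2(FPKM + 1), and leaving out each library. For the classes, lipase member H and lipoprotein lipases were also put with the pancreatic type, and sums were also taken on TMM-scaled CPM.

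Members and lists were chosen, by words in the descriptions, with earlier results of these data known. Members were named where past the thresholds, among the 10 highest by mean FPKM or among the 5 of smallest p in each class; others are named for their place, description or spread.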

Additional observations from a re-analysis of the deposited data

How the results depend on the processing

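No lipase passed the thresholds, in either direction, with median-ratio scaling, DESeq2, both limma fits, both other filters or the replicate block. With the block the median log2 fold change of the lipases was 0.008 and no call of a lipase changed. Leaving out a library gave 0 to 1 lipases higher and 0 to 1 lower, and a median from -0.092 (without DMNT 3) to 0.055. With lipase member H and lipoprotein lipases put in the pancreatic type, the median of that type was 0.009 and that of the others -0.116. Over all rows, 154 passed the thresholds, against 84 with limma on log2(FPKM + 1), 240 without a filter, 259 without Control 2, 239 without Control 3 and 275 without DMNT 2; the cause was not tested, except that the unfiltered table has more rows. Of the 23 lipases named by the rule 17 kept their direction under every alternative in which they could be tested, 10 to 14 each. LOC105398546 was at -0.020 and -0.019 in the limma fits, and without single libraries it ranged from -0.048 to 0.110. Likewise without single libraries LOC105394377 ranged from -0.268 to 0.154, LOC105389107 from -0.234 to 0.014, LOC105387526 from -0.224 to 0.045, LOC105389106;LOC105389108 from -0.198 to 0.329 and LOC105387529 from -0.027 to 0.494, and for these 6 the cause was not tested. With 3 libraries a group, changes of more than 2-fold could be missed, chiefly below 10 FPKM, and smaller ones at any level. Above 10 FPKM the intervals of LOC105385001 (-1.31 to 0.64) and LOC105394375 (-1.22 to 0.50) also passed -1.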

Other observations

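Apart from the row with the lipase description, 4 lipase symbols had a second assembled row without one, which the choice of members left out. For LOC105394123, lipase member H-A-like, the second row held more counts than the first, 109 to 233 against 25 to 98 a library. Over both rows together, an alternative chosen after seeing the data, the log2 ratio of the group means was 0.65 in place of 0.88, with 2.80, 2.53 and 4.46 CPM in Control and 4.67, 6.04 and 4.61 CPM in DMNT. On this sum the Control and DMNT libraries of the gene did not overlap, but the gap was narrow, from 4.46 CPM in Control 3 to 4.61 CPM in DMNT 3. Of all single rows tested, 4.25% had their DMNT libraries above all Control libraries. For LOC105394357, the inactive pancreatic lipase-related protein 1, the second row held 412 to 1081 counts a library, and the ratio over both rows was -0.25 in place of -0.04. LOC105390011 and the hormone-sensitive lipase LOC105392962 moved from -0.28 to -0.25 and from -0.02 to 0.03.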
